A study of Mus musculus with 20 samples.

Results

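The immunity-related GTPases (IRGs) are a family of interferon-inducible GTP-binding proteins, and 7 of its genes (Irgm1, Irgm2, Igtp, Iigp1, Tgtp1, Tgtp2 and Ifi47) were picked out by gene name from the 56748 genes of each count table. All 7 had enough counts to be tested in both experiments. Transcripts were measured by poly(A) RNA-seq in 20 libraries of mouse macrophages, to ask how the LPS/IFNγ response depends on inducible nitric oxide synthase (iNOS, encoded by Nos2) and on the reductase Akr1a1. The first experiment held 12 libraries labelled BMDM (bone marrow-derived macrophages), 3 in each of 4 groups: wildtype and iNOS KO, each unstimulated or stimulated for 48 h with LPS at 50 ng/mL and IFNγ at 30 ng/mL. The second held 8 libraries of RAW264.7 cells, a mouse macrophage line, 2 in each of 4 groups: wildtype and Akr1a1 KO, each unstimulated or stimulated for 48 h with LPS at 50 ng/mL and IFNγ at 10 ng/mL. The labels describe marrow from male or female C57BL/6J mice of 6 to 12 weeks, wildtype or lacking iNOS, grown with 20 ng/mL M-CSF. The study's methods give a narrower age range, name the knockout strain B6.129P2-Nos2tm1Lau/J, pool marrow by genotype, and place the iNOS KO RNA-seq in RAW264.7 cells instead, so neither source nor strain of these 12 libraries was settled here. Per the study's methods, the replicates of each RAW264.7 group were 2 independent clones. Nothing in the labels ties the BMDM replicates to separate animals, so p-values measure the spread between these libraries, which may be technical.

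IFNγ acts through its receptor and the receptor's kinases, and its target genes often carry GAS elements (gamma-activated sites) or interferon-stimulated response elements (ISRE), the latter bound by factors such as IRF1. IRG proteins defend mouse cells against vacuolar microbes such as Toxoplasma and Chlamydia. The regulatory members Irgm1, Irgm2 and Igtp (also called IRGM3) sit on host membranes and hold the effector members inactive there, and the effectors Iigp1, Tgtp1, Tgtp2 and Ifi47 load onto the microbe's vacuole with the help of the ATG8 conjugation machinery of autophagy and can break it open.

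Of the 7 members, 6 lie on chromosome 11, in a pair of clusters. As listed in the count table, which names no build, the first cluster held Irgm1 (48752795 to 48762510, minus strand), Tgtp1 (48876154 to 48884999, minus strand), Tgtp2 (48948021 to 48955033, minus strand) and Ifi47 (48967414 to 48987801, plus strand). The second held Igtp (58090382 to 58098417) and Irgm2 (58090444 to 58113608), both on the plus strand. The effector Iigp1 lies on another chromosome. RefSeq (GRCm38.p6) gave a promoter window for each of these 6 members. Its positions do not line up with those listed in the count table, so coordinates cannot be compared between these sources. The 250 bases before each RefSeq start site were searched on both strands for ISRE and GAS letters. An ISRE was spelled GAAA, any 2 bases and GAAA, and a GAS element TTC, any 3 bases and GAA. Stretches that hold the matches are shown because 4 members carry the same arrangement of both motifs, and capitals mark the matches.
Irgm1 (chr11:48871421-48871465, minus strand): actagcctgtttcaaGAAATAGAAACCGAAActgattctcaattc
Igtp (chr11:58199496-58199546, plus strand): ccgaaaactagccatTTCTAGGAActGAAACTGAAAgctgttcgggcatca
Irgm2 (chr11:58214887-58214937, plus strand): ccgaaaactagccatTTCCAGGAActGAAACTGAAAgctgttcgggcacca
Tgtp1 (chr11:48992299-48992349, minus strand): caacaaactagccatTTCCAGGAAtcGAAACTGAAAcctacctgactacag
Tgtp2 (chr11:49064258-49064308, minus strand): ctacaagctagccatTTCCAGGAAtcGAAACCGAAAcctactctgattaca
In Igtp, Irgm2, Tgtp1 and Tgtp2 a GAS match stood just upstream of an ISRE match. In Irgm1 there were 2 overlapping ISRE matches and no GAS match, and in Ifi47 these letters were not found in the window. Of 32851 promoter windows of the same length, 2.98% held the ISRE letters, 7.02% the GAS letters and 0.332% both. Over the whole aligned window Igtp and Irgm2 were 68.9% identical, and Tgtp1 and Tgtp2 were 62.6% identical. In the count table Irgm2 starts close to Igtp, while its RefSeq promoter stretch lies well downstream of that of Igtp. The Irgm2 window is thus not at the start of Irgm2 as counted. The distance between the Tgtp1 and Tgtp2 starts also differs between the sources, so a window of that pair may be off as well. A match describes letters and is not a measured binding site.

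The BMDM-labelled libraries held 15072109 to 18878107 counts each, and the RAW264.7 libraries 11876719 to 44583327. The knocked-out genes followed the labels: stimulated iNOS KO libraries held 870 to 912 CPM of Nos2 against 10370 to 11533 in stimulated wildtype, and stimulated Akr1a1 KO libraries held 212 to 370 CPM of Akr1a1 against 576 to 675. CPM are counts scaled to a common library size after TMM normalization. On the cell source of the 12 libraries, Pycard, whose product RAW264.7 cells are known to lack, had 0 to 12 counts in the BMDM-labelled libraries and 1 to 15 in RAW264.7 cells. Pycard was thus near absent in both experiments and did not set the BMDM-labelled libraries apart from the line. Near absence is the trait known for RAW264.7 cells, so this marker did not bear out the BMDM label. The source of these libraries remains unsettled. All 9 macrophage markers reached a mean of 1 CPM in the BMDM-labelled libraries and 8 of 9 in RAW264.7 cells, while the summed level of 6 lymphocyte markers never passed 0.693 CPM. Replicate B of stimulated iNOS KO stood apart, with a chi-square per gene of 28.8 and 36.8 against its fellow replicates where the other pairs of that experiment lay between 2.65 and 7.74. The RAW264.7 replicate pairs lay between 15.5 and 68.6, with stimulated Akr1a1 KO at 39.2 and stimulated wildtype at 68.6, so the libraries behind the Akr1a1 comparison differed as much. The unstimulated replicate B libraries of RAW264.7 cells carry a title that says stimulated, while their treatment field and library name say unstimulated, and the treatment field was used. In bulk RNA, fewer cells making a transcript and less transcript per cell cannot be told apart.

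LPS/IFNγ stimulation raised all 7 IRG transcripts in wildtype BMDM-labelled libraries, from at most 15.7 CPM to between 169 and 2407 CPM. Stimulation raised 32.4% of the 18691 genes tested and lowered 28.5%, so a rise alone was common, but the median log2 fold change of the 7 members was 9.66, with the floor used where a group held no counts, against 0.07 for all genes tested. Unstimulated wildtype libraries A, B and C held 14.0, 14.2 and 15.7 CPM of Irgm1, a regulator that also acts in autophagy, and the stimulated libraries held 1965, 2019 and 2065 CPM. The log2 fold change was 7.11, with a standard error (SE) of 0.097 and an adjusted p of 1.88e-18, where each edgeR p given here comes from quasi-likelihood F tests and the Benjamini-Hochberg method. Irgm1 was the most abundant member before stimulation. Irgm2, a regulator, rose from 2.19, 2.95 and 2.70 CPM to 706, 743 and 779 CPM, a log2 fold change of 8.15 (SE 0.104, adjusted p = 1.13e-18 by edgeR). Igtp, the third regulator, rose from 2.89, 2.61 and 2.17 CPM to 2058, 2076 and 2132 CPM, with a log2 fold change of 9.66 (SE 0.112, adjusted p = 4.26e-19 by edgeR). The 3 regulators were thus detectable in every unstimulated library, and no stimulated library came near an unstimulated one.

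The effectors Iigp1, Tgtp1 and Tgtp2 were all but silent before stimulation. Of the 3 unstimulated wildtype libraries, 1 held a single count of Iigp1, 1 a single count of Tgtp1 and none any count of Tgtp2. After stimulation Iigp1 reached 2407, 1935 and 2040 CPM in replicates A, B and C, an increase of its summed counts by a ratio of 117096 (95% exact interval 21016 to 4625083, counting error only, edgeR adjusted p = 3.6e-14). Tgtp1 reached 193, 169 and 172 CPM, a ratio of 9803 (95% exact interval 1759 to 387230, edgeR adjusted p = 1.53e-14). Tgtp2 reached 299, 331 and 305 CPM, at least 5722-fold higher than the level that 3 counts over the unstimulated group would give (edgeR adjusted p = 1.74e-14). The fourth effector, Ifi47, differed from these in having a measurable level at rest, with 5.03, 4.89 and 5.17 CPM. It rose to 327, 344 and 354 CPM, and its log2 fold change of 6.08 (SE 0.085, adjusted p = 2.45e-18 by edgeR) was the smallest among the 4 members with a fitted value.

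**Figure D1:**
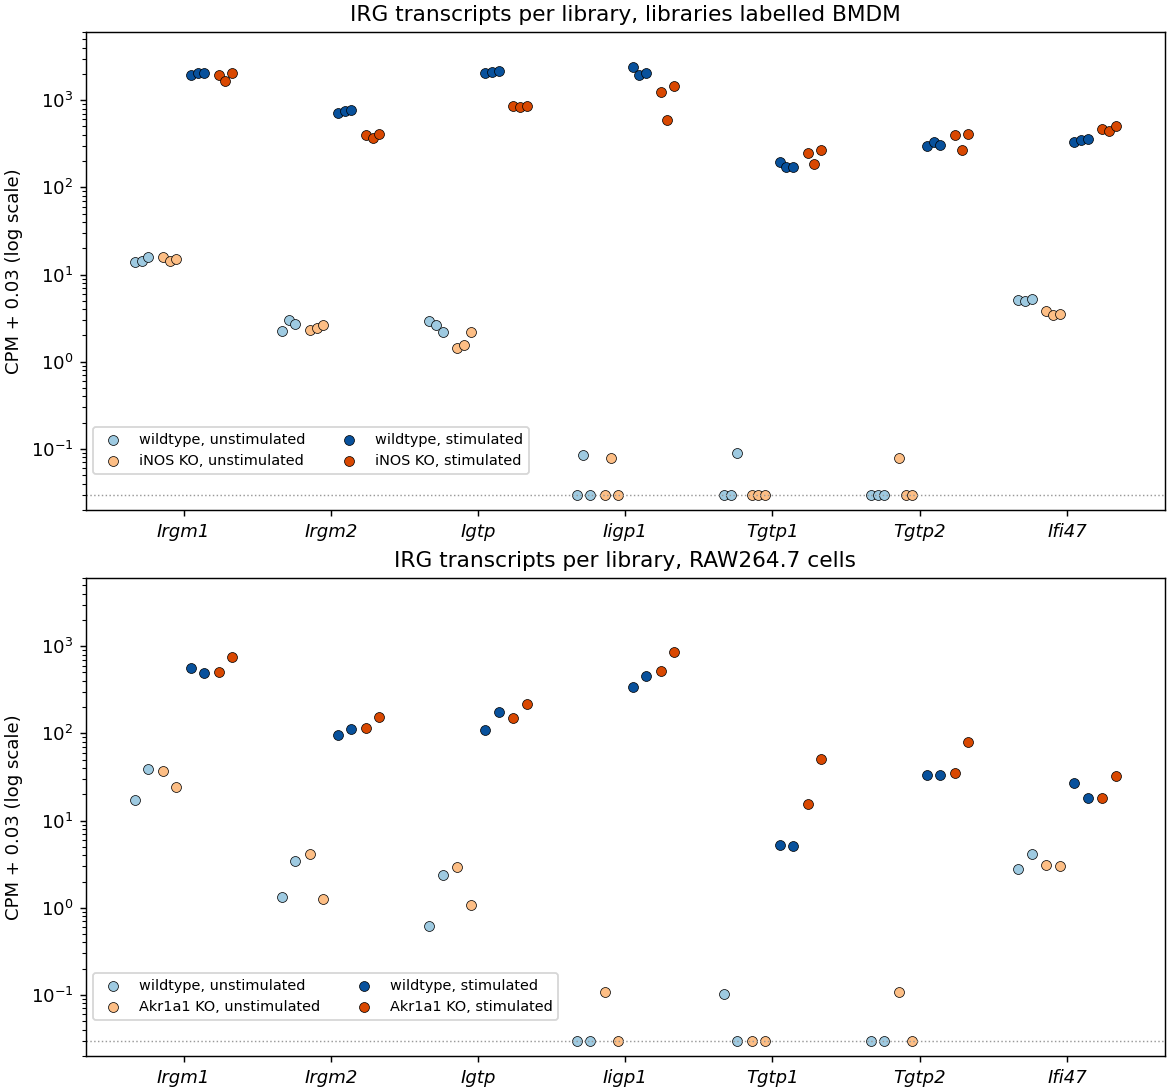
Levels of the 7 IRG transcripts in every library, as CPM plus 0.03 on a log axis, with BMDM-labelled libraries above and RAW264.7 cells below, and 1 point per library coloured by genotype and stimulation. The dotted line marks 0 counts, where most unstimulated libraries of Iigp1, Tgtp1 and Tgtp2 lie, and all stimulated points lie above all unstimulated points of the same gene and experiment.

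Per kilobase of transcript, stimulated wildtype libraries held most Igtp, at a mean of 1033 CPM per kb. Iigp1 (365 CPM per kb) and Irgm1 (347 CPM per kb) came next and overlapped between libraries, at 332 to 413 and 338 to 355. Irgm2 (201 CPM per kb), Ifi47 (138), Tgtp2 (106) and Tgtp1 (55.5) followed on the same scale, each separated from its neighbours in every library. Together the 7 members took 0.627% to 0.679% of all counts in stimulated wildtype libraries. Igtp and Irgm2 overlap by 7974 bases on the same strand, and 11.8% of the 50-base words in Igtp's annotated transcripts also occur in Irgm2. Tgtp1 and Tgtp2 are nearly alike, with 79.4% of Tgtp1's 50-base words found in Tgtp2 and 85.8% of Tgtp2's in Tgtp1. How the counting divided such reads is not given in the sources used here, so the split between Tgtp1 and Tgtp2 is uncertain. The same holds for Igtp and Irgm2 where they share sequence or position.

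In iNOS KO cells stimulation also raised all 7 members, among 27.3% of genes that rose and 24.6% that fell. The log2 fold changes of the regulators were 6.96 for Irgm1 (SE 0.096), 7.33 for Irgm2 (0.101) and 8.97 for Igtp (0.112), and that of Ifi47 was 7.05 (0.088). Iigp1, with 1 count over the unstimulated group, rose by a ratio of 68597 (95% exact interval 12311 to 2709501). Tgtp2, also with 1 count, rose by a ratio of 22465 (4032 to 887389), and Tgtp1, with 0 counts, was at least 4849-fold higher. The largest edgeR adjusted p of the 7 was 1.27e-13, for Iigp1. Without replicate B of stimulated iNOS KO the fitted values were 7.04 for Irgm1, 7.37 for Irgm2, 8.98 for Igtp and 7.09 for Ifi47. Stimulated and unstimulated libraries of each genotype enter more than one of these comparisons, so they are not independent.

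Among stimulated cells, members differed between iNOS KO and wildtype in both directions. Irgm2, Igtp and Iigp1 were lower in iNOS KO, Ifi47 and Tgtp1 were higher, and Irgm1 and Tgtp2 did not pass the test. The wildtype and iNOS KO groups both carried LPS/IFNγ, so the comparison sets the stimulated states of the genotypes side by side. Any other difference between the knockout strain or line and wildtype cannot be told apart from the loss of iNOS. The background was broad, since 24.2% of genes were called higher and 24.2% lower in this comparison, and 5 of 7 members called is read against that. Igtp had 2058, 2076 and 2132 CPM in wildtype replicates A, B and C and 859, 843 and 864 CPM in iNOS KO. The iNOS KO libraries thus lay below the wildtype libraries with little spread in either group, 2.44-fold lower in the fit (log2 fold change -1.29, SE 0.072, adjusted p = 1.91e-10 by edgeR), and the log2 fold change was -1.28 without replicate B of iNOS KO. Irgm2 had 706, 743 and 779 CPM in wildtype and 395, 371 and 412 CPM in iNOS KO, without overlap and 1.89-fold lower (log2 fold change -0.92, SE 0.069, adjusted p = 8.4e-09 by edgeR, and -0.88 without replicate B). Both of these regulators lie in the second cluster, where their gene bodies overlap, so their values may not be independent. The part of shared reads in them was not tested.

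Irgm1, the regulator in the first cluster, had 1965, 2019 and 2065 CPM in wildtype and 1926, 1649 and 2047 CPM in iNOS KO. The groups overlapped, and its log2 fold change of -0.11 (SE 0.072, adjusted p = 0.244 by edgeR) did not pass, nor did the value of -0.02 (adjusted p = 0.766) without replicate B. The effector Iigp1 had 2407, 1935 and 2040 CPM in wildtype and 1233, 586 and 1452 CPM in iNOS KO, so that every iNOS KO library was lower and replicate B lowest by far. It was 1.95-fold lower in the fit (log2 fold change -0.96, SE 0.211, adjusted p = 0.00108 by edgeR) and its log2 fold change was -0.66 (adjusted p = 2.34e-08) without that replicate.

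Ifi47 was higher in iNOS KO: 327, 344 and 354 CPM in wildtype stood against 464, 441 and 500.3 CPM in iNOS KO. The groups did not overlap, and the increase was 1.37-fold (log2 fold change 0.46, SE 0.062, adjusted p = 1.07e-05 by edgeR, and 0.50 without replicate B). Tgtp1 had 193, 169 and 172 CPM in wildtype and 249, 186 and 268 CPM in iNOS KO, and replicate B of iNOS KO fell within the wildtype range. Its log2 fold change of 0.40 (SE 0.116, adjusted p = 0.0104 by edgeR) did not pass without iNOS KO replicate A (0.34, adjusted p = 0.0631) or C (0.29, adjusted p = 0.0504), and was 0.54 (adjusted p = 1.46e-07) without replicate B. Its near copy Tgtp2 had 299, 331 and 305 CPM in wildtype and 403, 270.4 and 411 CPM in iNOS KO, so replicate B was again the low one. Its log2 fold change of 0.22 (SE 0.126, adjusted p = 0.179 by edgeR) did not pass, and without replicate B it was 0.39 (adjusted p = 5.29e-06) and passed. With the counts of Tgtp1 and Tgtp2 summed, the log2 fold change was 0.28 (adjusted p = 0.0529), so the pair as one did not pass.

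**Figure D2:**
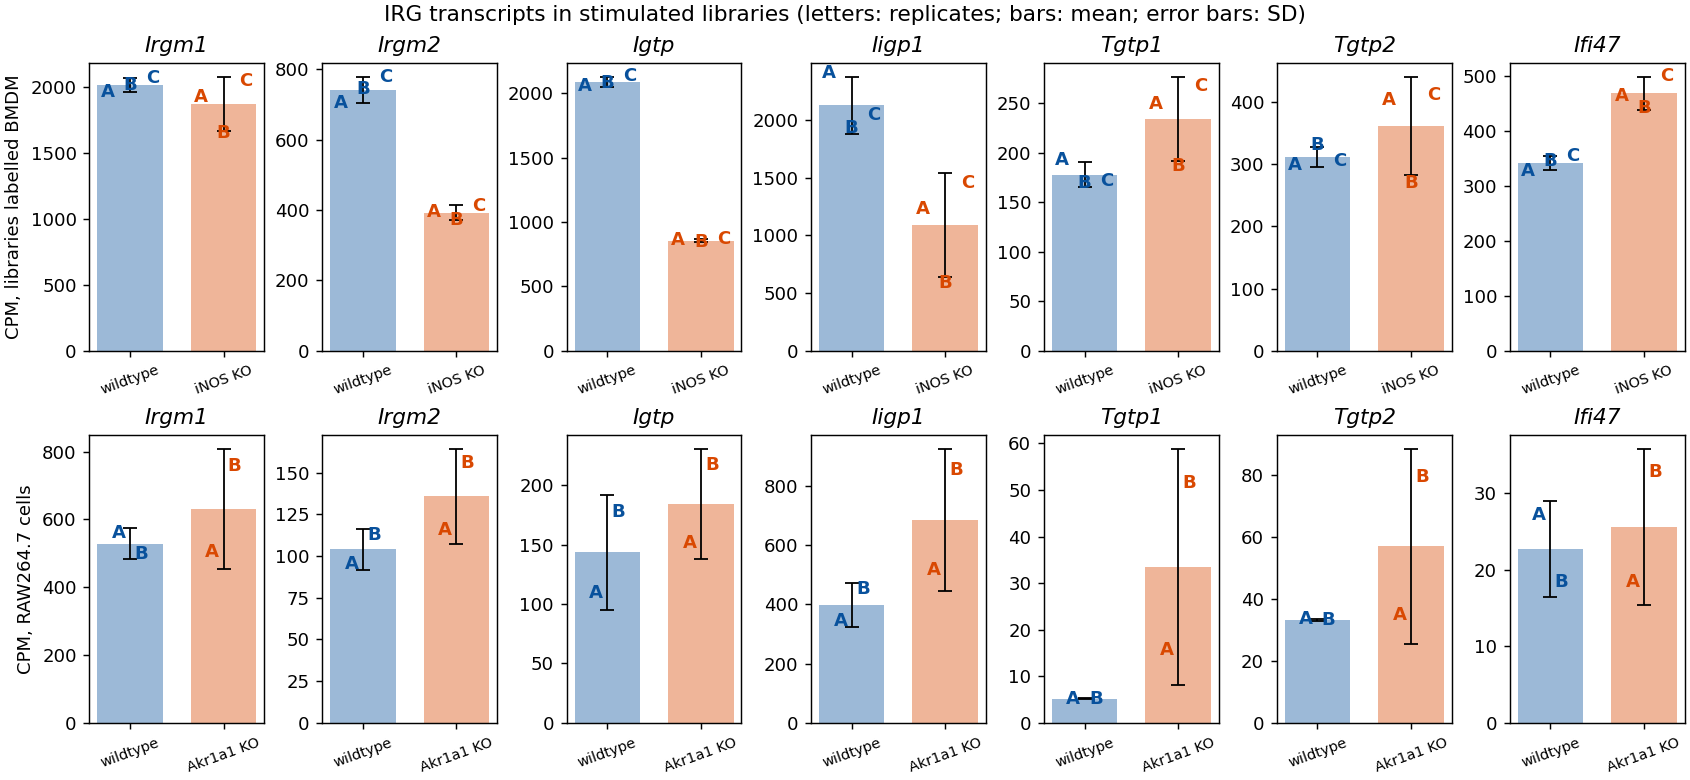
CPM of each IRG transcript in stimulated libraries, with BMDM-labelled wildtype and iNOS KO above and RAW264.7 wildtype and Akr1a1 KO below. Bars are means, error bars SD, and letters the replicates, and iNOS KO replicate B is the lowest of its group for every gene, most clearly for Iigp1 (586 CPM).

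Over all 7 members, stimulated wildtype libraries held 7617 to 7955 CPM and stimulated iNOS KO libraries 4347 to 5954 CPM, the lowest of them replicate B. The macrophage markers, whose sum was 8150 to 9137 CPM in stimulated wildtype, were at 12729 to 13565 CPM in stimulated iNOS KO, with 4 of 9 called higher and 3 lower. The sum of 5 fibroblast markers was 3.58 to 4.92 CPM in stimulated wildtype and 10.4 to 15.8 in stimulated iNOS KO, with 1 of the 5 at a mean of 1 CPM or more, and of the 2 fibroblast markers tested 1 was called higher and 1 lower. The sum of 4 dendritic cell markers was 0.900 to 1.59 CPM in stimulated wildtype and 2.38 to 3.70 CPM in stimulated iNOS KO, with 2 of 2 tested called higher. The part of these markers in the IRG differences was not tested.

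**Figure D3:**
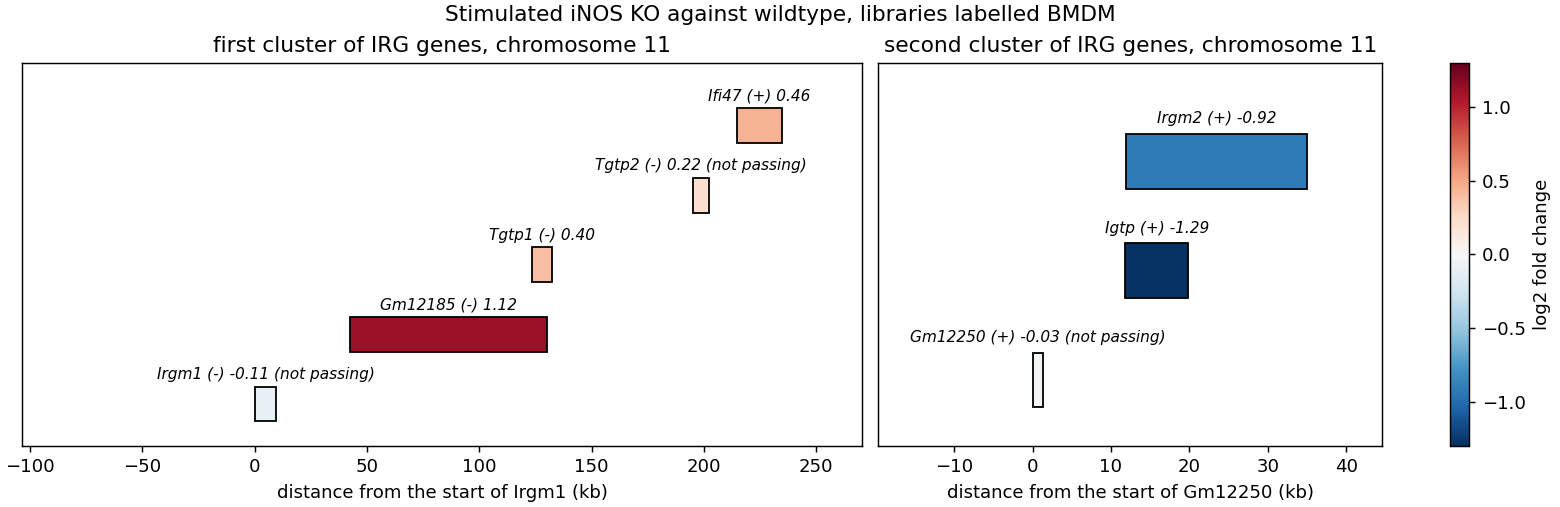
Gene bodies of the IRG clusters on chromosome 11, drawn to scale as distance in kb from the start of the first gene in each, and coloured by the log2 fold change of stimulated iNOS KO against wildtype. In the first cluster the called genes are higher (Ifi47 0.46, Tgtp1 0.40 and the related Gm12185 1.12), while Irgm1 (-0.11) and Tgtp2 (0.22) did not pass. Gm12185 overlaps Tgtp1 on the same strand. In the second cluster Igtp (-1.29) and Irgm2 (-0.92) are lower, while Gm12250 (-0.03) did not pass.

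Without stimulation, 2 of the 4 members above the floor were lower in iNOS KO and 0 were higher, where 4.09% of all genes were lower and 1.88% higher. Ifi47 had 5.03, 4.89 and 5.17 CPM in wildtype and 3.76, 3.38 and 3.46 CPM in iNOS KO, with no overlap (log2 fold change -0.51, SE 0.101, adjusted p = 0.00454 by edgeR). Igtp had 2.89, 2.61 and 2.17 CPM in wildtype and 1.40, 1.54 and 2.15 CPM in iNOS KO, where the highest iNOS KO library all but met the lowest wildtype one. Its log2 fold change of -0.60 (SE 0.150, adjusted p = 0.0232 by edgeR) rests on 29 to 58 counts a library, and the call was lost without wildtype replicate A (-0.50, adjusted p = 0.214) or B (-0.59, adjusted p = 0.0756) or without iNOS KO replicate A (-0.48, adjusted p = 0.219) or B (-0.54, adjusted p = 0.115). Irgm1 (0.04, SE 0.088, adjusted p = 0.870) and Irgm2 (-0.10, SE 0.134, adjusted p = 0.836) did not pass in edgeR. Iigp1, Tgtp1 and Tgtp2 held at most 1 count in any unstimulated library, and no fold is given. The summed macrophage markers stood at 8336 to 8685 CPM in unstimulated wildtype and 5893 to 6303 CPM in unstimulated iNOS KO, with 5 of 9 called lower and 0 higher, and their part in these values was not tested.

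The interaction asks whether stimulation changed a gene more in one genotype than in the other, and 20.0% of genes had a positive and 15.4% a negative interaction. Of the 4 members with a value, the rise was smaller in iNOS KO for Irgm2 (log2 interaction -0.82, SE 0.151, adjusted p = 0.000372 by edgeR) and Igtp (-0.69, SE 0.169, adjusted p = 0.00396). For Ifi47 it was larger (0.96, SE 0.119, adjusted p = 6.03e-06 by edgeR), since its level was lower than wildtype before stimulation and higher after it. For Irgm1 the interaction was -0.15 (SE 0.113, adjusted p = 0.350 by edgeR). The call for Igtp was lost without unstimulated iNOS KO replicate C (-0.48, adjusted p = 0.0963). Without replicate B of stimulated iNOS KO the values were -0.78 for Irgm2, -0.68 for Igtp, 1.00 for Ifi47 and -0.07 for Irgm1.

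In wildtype RAW264.7 cells all 7 members rose again, where 18.5% of 19569 genes rose and 19.2% fell. The median log2 fold change of the members was 6.39 against -0.03 for all genes. Irgm1 had 17.3 and 39.0 CPM in unstimulated replicates A and B and 561 and 497 CPM in stimulated ones (log2 fold change 4.21, SE 0.417, adjusted p = 0.000123 by edgeR). Irgm2 rose from 1.31 and 3.44 to 95.3 and 112.5 CPM (5.31, SE 0.537), and Igtp from 0.581 and 2.32 to 109 and 178 CPM (6.39, SE 0.588). The unstimulated replicates differed more than the stimulated ones for all 3 regulators, with replicate B higher.

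Iigp1 had 0 counts in both unstimulated wildtype libraries and 344 and 450.3 CPM in the stimulated ones, at least 8130-fold higher. Tgtp2 had 0 counts and then 33.4 and 33.0 CPM, at least 666-fold higher, and Tgtp1 went from 1 count in all to 5.21 and 5.12 CPM, a ratio of 311 (95% exact interval 55.0 to 12356). Ifi47 rose from 2.76 and 4.08 to 27.2 and 18.3 CPM (log2 fold change 2.70, SE 0.352, adjusted p = 0.000525 by edgeR), the smallest fitted rise in this line too. The largest edgeR adjusted p among the 7 was 0.00109, for Tgtp1. Per kilobase, the order in stimulated wildtype RAW264.7 cells was Irgm1 (91.0 CPM per kb), Igtp (71.0) and Iigp1 (68.2), where Igtp overlapped both of the others between libraries, then Irgm2 (28.2), Tgtp2 (11.3), Ifi47 (9.21) and Tgtp1 (1.61).

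In Akr1a1 KO cells stimulation also raised all 7 members, among 19.8% of genes that rose and 19.4% that fell. The log2 fold changes were 4.36 for Irgm1 (SE 0.421), 5.83 for Irgm2 (0.562), 6.70 for Igtp (0.608) and 3.09 for Ifi47 (0.362). Iigp1 rose by a ratio of 28623 (95% exact interval 5137 to 1130587), Tgtp2 by a ratio of 2390 (428 to 94463), and Tgtp1 was at least 471-fold higher. The largest edgeR adjusted p was 0.00028, for Ifi47.

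Between stimulated Akr1a1 KO and wildtype RAW264.7 cells, 0 of 7 members passed the edgeR test, where 0.0869% of genes were called higher and 0.199% lower, and DESeq2 called 1. An unadjusted p under 0.05 was found for 2 of 7 members and for 11.1% of all genes tested. All 7 fitted values were above 0, with a median of 0.39 against 0.01 for all genes, though those of Irgm1 and Ifi47 changed sign when 1 library was left out. Both knockout libraries lay above both wildtype libraries for 4 members, Irgm2, Iigp1, Tgtp1 and Tgtp2, as they did for 19.9% of all genes tested. Tgtp1 differed most, with 5.21 and 5.12 CPM in wildtype replicates A and B and 15.6 and 51.4 CPM in Akr1a1 KO. The knockout libraries differed from each other by more than 3 times, and the log2 fold change of 2.70 had an SE of 0.588 (adjusted p = 0.174 by edgeR, 0.000442 by DESeq2). Without knockout replicate B it was 1.59.

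Iigp1 had 344 and 450.3 CPM in wildtype and 515 and 854 CPM in Akr1a1 KO (log2 fold change 0.78, SE 0.281, adjusted p = 0.376 by edgeR). Tgtp2 had 33.4 and 33.0 CPM in wildtype and 34.7 and 79.1 CPM in Akr1a1 KO, so that replicate A barely left the wildtype level (0.78, SE 0.383, adjusted p = 0.504). Without knockout replicate B its log2 fold change was 0.06. Among the regulators, Irgm1 had 561 and 497 CPM in wildtype and 505 and 756 CPM in Akr1a1 KO (log2 fold change 0.25, SE 0.364, adjusted p = 0.846 by edgeR). Irgm2 had 95.3 and 112.5 CPM in wildtype and 115.6 and 155.9 CPM in Akr1a1 KO, a narrow gap between the groups (0.39, SE 0.430, adjusted p = 0.787). Igtp had 109 and 178 CPM in wildtype and 151 and 217 CPM in Akr1a1 KO (0.36, SE 0.442, adjusted p = 0.812). Ifi47, an effector, had 27.2 and 18.3 CPM in wildtype and 18.4 and 32.8 CPM in Akr1a1 KO, and the groups overlapped (0.17, SE 0.324, adjusted p = 0.898). Replicate B was the higher knockout library for all 7 members. No difference was called for Irgm1, Irgm2, Igtp or Ifi47. The summed macrophage markers stood at 12229 to 12440 CPM in stimulated wildtype and 5294 to 9240 in stimulated Akr1a1 KO, with 8 of 9 markers at a mean of 1 CPM or more. The summed neutrophil markers stood at 121 to 145 CPM in stimulated wildtype and 247.6 to 419.9 in stimulated Akr1a1 KO, with 1 of 7 at that mean. Of 8 macrophage markers tested, edgeR called 0 higher and 1 lower, and of 4 neutrophil markers tested it called 0. The part of these markers in the IRG values was not tested.

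**Figure D4:**
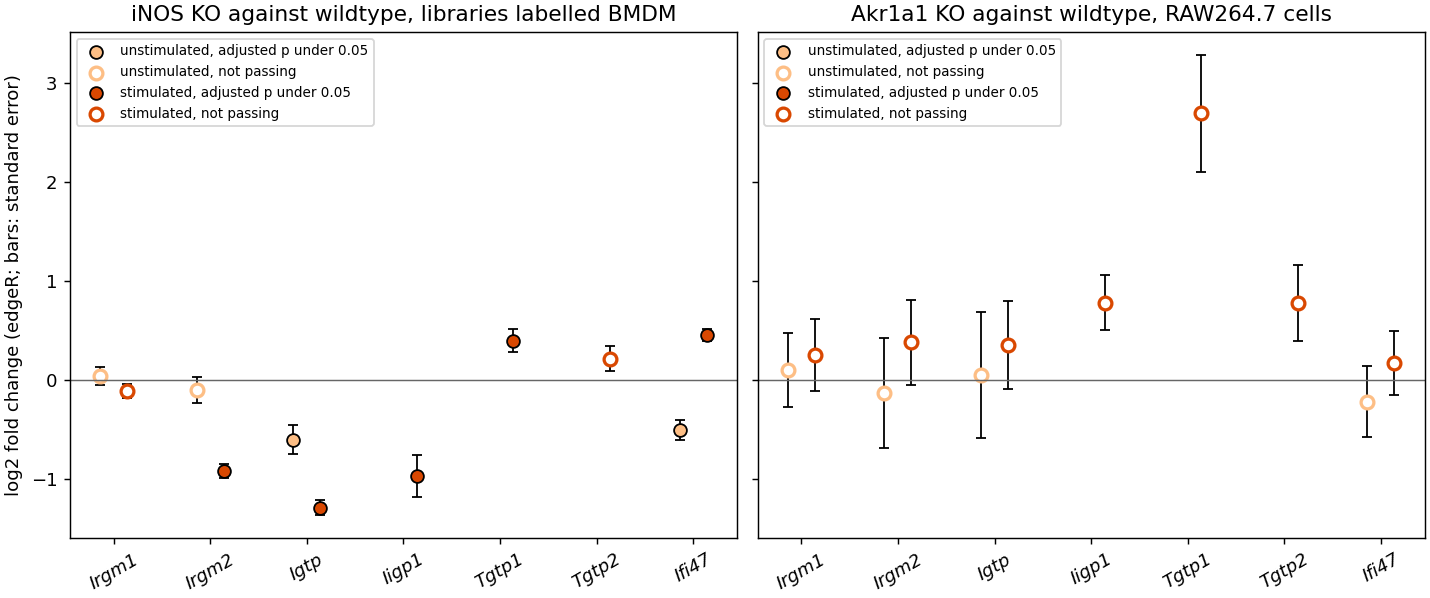
Log2 fold change of knockout against wildtype for each IRG transcript, with its standard error, in unstimulated and stimulated libraries of both experiments. Filled points passed an adjusted p of 0.05 in edgeR, and Iigp1, Tgtp1 and Tgtp2 have no unstimulated point because their counts were at or under the floor. The called points all lie in the iNOS experiment, and the RAW264.7 bars are longer.

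Within the near-identical pair, Tgtp1 took 33.9% to 40.8% of the summed Tgtp1 and Tgtp2 counts in the 6 stimulated BMDM-labelled libraries. In stimulated wildtype RAW264.7 cells it took 13.5% (95% Wilson interval 10.8 to 16.7) and 13.4% (11.1 to 16.2). In stimulated Akr1a1 KO cells it took 31.0% (27.8 to 34.4) and 39.4% (37.3 to 41.5). The intervals cover counting error only. They do not overlap between the RAW264.7 genotypes, but neither do those of the Akr1a1 KO libraries with each other. BMDM-labelled stimulated wildtype replicates A (38.0 to 40.3) and B (32.8 to 35.0) did not overlap either, so such gaps also occur between replicates. With the pair summed, the log2 fold change of Akr1a1 KO was 1.24 (adjusted p = 0.343 by edgeR). Gm12185, a related gene that overlaps Tgtp1 by 6900 bases on the same strand, had at most 190 counts in a RAW264.7 library, and its part in the share was not tested.

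**Figure D5:**
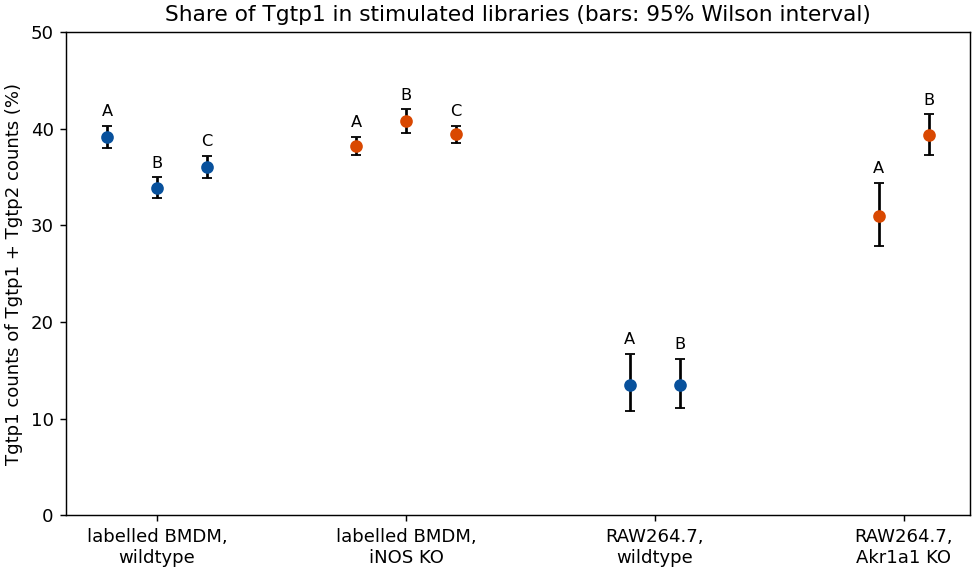
Share of Tgtp1 in the summed counts of Tgtp1 and Tgtp2 in each stimulated library, in percent with its 95% Wilson interval. Both wildtype RAW264.7 libraries lie near 13.5%, and the Akr1a1 KO and BMDM-labelled libraries lie between 31.0% and 40.8%.

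Without stimulation, 0 of the 4 members above the floor differed between Akr1a1 KO and wildtype by edgeR or DESeq2, and 0 had an unadjusted p under 0.05, where 0.23% of genes were called higher and 0.353% lower. Irgm1 had 17.3 and 39.0 CPM in wildtype and 37.5 and 24.3 CPM in Akr1a1 KO, and the groups of Irgm2, Igtp and Ifi47 overlapped in the same way. The log2 fold changes were 0.11 for Irgm1 (SE 0.374), -0.13 for Irgm2 (0.557), 0.05 for Igtp (0.637) and -0.22 for Ifi47 (0.355). For the interaction, 0 of 4 passed by either tool and 0 had an unadjusted p under 0.05. Among all genes tested, 0.00511% had a called positive and 0.0153% a called negative interaction. The 4 values were 0.15 for Irgm1 (SE 0.522), 0.51 for Irgm2 (0.704), 0.30 for Igtp (0.770) and 0.39 for Ifi47 (0.481).

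Other genes of the family and its pathway were read from lists. For scale, stimulation raised 32.4% of all genes and lowered 28.5% in wildtype BMDM-labelled libraries, and 27.3% and 24.6% in iNOS KO. In RAW264.7 cells it raised 18.5% and lowered 19.2% in wildtype, and 19.8% and 19.4% in Akr1a1 KO. Of 11 further IRG genes tested in the BMDM-labelled libraries, 11 rose with stimulation in wildtype and 9 in iNOS KO, though 6 of them held 3 or fewer counts in an unstimulated group. In stimulated iNOS KO, 1 was higher, Gm12185 (log2 fold change 1.12), and 3 were lower, led by Irgq (-1.25) and F830016B08Rik (-0.97). The median of the 11 was -0.32 against -0.04 for all genes, of which 24.2% were called higher and 24.2% lower. In RAW264.7 cells 9 of 9 rose in both genotypes.

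Of 17 genes of IFNγ signalling, 15 rose and 2 fell with stimulation in wildtype BMDM-labelled libraries, and the latter were the receptor chains Ifngr1 (-0.33) and Ifngr2 (-0.19). In iNOS KO 15 rose and 1 fell. Between the stimulated genotypes 2 were higher in iNOS KO, the transcription factors Irf8 (1.00) and Irf7 (0.29), and 6 were lower, led by Ciita (-1.29), the activator of MHC class II genes, and the receptor kinase Jak1 (-1.07). The median of the list was -0.19, beside 24.2% of all genes called higher and 24.2% lower in this comparison. In RAW264.7 cells 15 rose and 1 fell, Ifngr1 (-0.67 in wildtype, -0.66 in Akr1a1 KO).

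The ATG8 conjugation and vacuole targeting list held 16 genes, among them Sqstm1, Trim21, Traf6 and Ube2l6, which are not ATG8 conjugation genes. Of the 16, 15 rose in wildtype and 13 in iNOS KO. In stimulated iNOS KO 12 were lower, led by Map1lc3a (-1.57), an ATG8 protein, and Atg10 (-0.84), an E2-like enzyme, and 3 were higher, among them Atg16l1 (0.39) and Trim21 (0.29). The median was -0.42, beside 24.2% of all genes called higher and 24.2% lower in this comparison. The guanylate-binding proteins, a second family of interferon-inducible GTPases, had 11 of 11 genes raised in both genotypes. Of these, 7 in the wildtype comparison and 6 in the iNOS KO comparison held 3 or fewer counts in a compared group. In stimulated iNOS KO 8 were lower than in wildtype, led by Gbp8 (-2.29) and Gbp11 (-1.50), with a list median of -0.86. Between stimulated Akr1a1 KO and wildtype RAW264.7 cells, edgeR called 0 genes of these lists, and DESeq2 called 1 further IRG gene and 2 guanylate-binding proteins, all higher. An unadjusted p under 0.05 was found for 2 of 9 further IRG genes and 3 of 17 IFNγ signalling genes. It was also found for 2 of 16 ATG8 and vacuole targeting genes and 4 of 11 guanylate-binding proteins, beside 11.1% of all genes.

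The genes whose pattern was most like the mean of the 7 members were found by the root-mean-square difference of centred log2 CPM. Over the 12 BMDM-labelled libraries and 8567 genes they were Gbp7 (0.313), Slamf8 (0.318), Gbp3 (0.347), Csf3 (0.374) and Ifit1 (0.416). Over the 8 RAW264.7 libraries and 8848 genes they were Acod1 (0.315), Cd274 (0.323), Perm1 (0.424), Cd40 (0.448) and Tnfrsf1b (0.461). These values are a description with no test.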

How the data were processed

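Per the labels, the processing notes and the paper's methods, the authors filtered reads after CASAVA base calling, aligned them to mm10 with STAR and counted them per gene. The deposited tables hold raw counts for 56748 genes, without normalization, and name no build. Their positions for the members on chromosome 11 did not line up with GRCm38.p6. Strand and the handling of reads shared by genes are not given in the sources used here.

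Groups came from the labels. A gene entered the test if its counts summed to 10 or more, which left 18691 genes for the BMDM-labelled libraries and 19569 for RAW264.7 cells. Fits used TMM scaling and edgeR 4.0.16 (R 4.3.3) quasi-likelihood F tests of 1 mean per group, 2-sided, with Benjamini-Hochberg adjustment over all genes tested and a threshold of 0.05. The common biological coefficient of variation was 9.19% in the BMDM-labelled libraries and 22.8% in RAW264.7 cells. Standard errors were taken as the log2 fold change over the square root of F. A member with 0 counts over a group was given a lower bound at 3 counts over the group, and one with 1 to 3 counts the ratio of summed counts with an exact 95% interval. The named genes were the 7 members, at most 2 highest and 2 lowest called genes of each list, and the 5 genes most like the members' mean among protein-coding genes of mean log2 CPM over 3 (prior count 2). The members and lists were chosen with earlier results of these data known. On simulated data with 100 genes changed 2-fold and 100 changed 4-fold, 97 and 100 were recovered for stimulated iNOS KO against wildtype (18276 genes) and 41 and 90 for stimulated Akr1a1 KO against wildtype (18961 genes). The changed genes were drawn from well-counted ones, and no other difference between groups was simulated. These rates therefore need not hold for each member.

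Alternatives were DESeq2 1.42.0, its size factors, filterByExpr, no filter, a fold change limit of 1 (log2), fits of the compared groups alone, a replicate block by letter, Tgtp1 and Tgtp2 summed, and each library left out. Same-letter libraries deviated together with r from -0.517 to 0.497 in the BMDM-labelled libraries and from -0.165 to 0.438 in RAW264.7 cells, so the letters were not taken to pair libraries across groups. Within RAW264.7 genotypes, stimulated and unstimulated libraries of a letter had r of 0.438 in wildtype and 0.103 in Akr1a1 KO, and the sources used here do not say whether they share a clone. Promoters came from RefSeq (GRCm38.p6) and shared 50-base words from GENCODE transcripts. Sequence and position of Iigp1 are not reported here. Figures used matplotlib 3.10.9 under Python 3.11.15.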

Additional observations from a re-analysis of the deposited data

Results flagged for a closer look

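In the BMDM-labelled libraries, the response of 3 IRG genes to stimulation differed between iNOS KO and wildtype by the edgeR interaction test. The log2 interaction was -0.82 for Irgm2 (adjusted p = 0.000372) and -0.69 for Igtp (adjusted p = 0.00396), both with a smaller rise in iNOS KO, and 0.96 for Ifi47 (adjusted p = 6.03e-06), with a larger rise. Igtp and Ifi47 also differed between genotypes before stimulation, and the cause of the differences was not tested.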

How the results depend on the processing

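All 7 members stayed called higher by stimulation, in both genotypes and both experiments, under every alternative run (6 of 6 with Tgtp1 and Tgtp2 summed). Where a library left out leaves 1 in its group, that library is assumed to vary like the others. With a log2 fold change limit of 1, the members called fell to 0 for unstimulated iNOS KO, 1 for stimulated iNOS KO and 0 for the iNOS interaction. With only the groups compared, 1 was called for unstimulated iNOS KO, and leaving out 1 library gave 1 to 2. For stimulated Akr1a1 KO, DESeq2 called 1 member (Tgtp1, adjusted p = 0.000442) and no filter called 3 (Iigp1, Tgtp1 and Tgtp2, the last at adjusted p = 0.0201), and the cause was not tested. With no filter Tgtp2 also passed in stimulated iNOS KO (0.22, adjusted p = 0.021). A replicate block within each RAW264.7 genotype, chosen after seeing the data because a letter may mark a clone, gave 7 calls for stimulation in each genotype and 0 for the interaction, as without it. The replicate block across genotypes gave 5 calls for stimulated iNOS KO and 3 for its interaction, and changed no call. Without stimulation, Irgm2 in Akr1a1 KO turned to 0.11 with DESeq2 and 0.11 with only the groups compared, and the Akr1a1 interaction of Igtp turned to -0.088 with DESeq2. Leaving out 1 library turned uncalled RAW264.7 values, which ranged in unstimulated Akr1a1 KO from -0.34 to 0.83 for Irgm1, -1.09 to 0.86 for Irgm2, -0.69 to 1.59 for Igtp and -0.44 to 0.12 for Ifi47. They ranged in stimulated Akr1a1 KO from -0.075 to 0.48 for Irgm1 and -0.32 to 0.50 for Ifi47, and for the interaction from -0.58 to 0.60 for Irgm1, -0.48 to 1.47 for Irgm2, -1.24 to 1.05 for Igtp and -0.14 to 0.67 for Ifi47. Of the values of single members, 782 kept their direction and side of the threshold, 17 lost the call, 6 gained it and 23 changed sign. With 2 libraries a group, 41 of 100 simulated 2-fold changes and 90 of 100 simulated 4-fold changes in well-counted genes were found for RAW264.7 cells.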
